A study of Mus musculus with 24 samples.

Results

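The contralateral stroke microvessels are 6 of the 24 libraries of mouse brain microvessels in the series. They come from the hemisphere opposite to a transient middle cerebral artery occlusion (tMCAO), 3 from 24 h and 3 from 7 days post-stroke, and were chosen by their labels for surgery, hemisphere and time point. The animals were male C57BL/6J mice of 10 to 12 weeks in which a filament closed the middle cerebral artery for 60 min before reperfusion. Sham-operated mice, in which the filament was withdrawn at once after reaching the branching point, gave 6 contralateral libraries at the same time points, and the occluded side gave 6 stroke ipsilateral libraries. All tMCAO mice received supportive care with warming, saline and feeding, and the 7-day group holds only animals that survived to that day. Each library pools 3 hemispheres, freed of meninges and caught on a mesh. The fragments keep pericytes, pieces of astrocyte endfeet and neighbouring cells beside endothelium. The mice of 24 h and 7 days are different animals, so the libraries of the time points were compared unpaired. The authors had left out libraries as outliers before deposit, so the spread between the remaining libraries may be smaller than that of all that were prepared.

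The blood-brain barrier is formed by endothelial cells that are sealed by tight junctions and carry nutrients by dedicated transporters. Pericytes, a basement membrane shared with astrocyte endfeet and perivascular macrophages support and patrol this wall. In experimental stroke the uninjured hemisphere often serves as the reference for the injured one, and it shares the circulation, the stress of surgery and recovery, and the clock time of sampling with it. The comparison of 7 days with 24 h addresses how far that reference differs between the time points.

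From 24 h to 7 days, 0 of 15982 genes tested were called regulated in the contralateral stroke microvessels (percent called 0). A call needed an adjusted p under 0.05 in limma and a difference beyond 1.5-fold in either direction. The smallest adjusted p was 0.107, shared by the leading genes. Values are DESeq2-normalized counts rounded by the authors, and fold changes are on the scale of log2 after addition of 1. An unadjusted p under 0.05 was found for 2637 genes (16.5%), of which 1495 were higher (9.35%) and 1142 lower (7.15%) at 7 days. The 3 libraries of 7 days lay apart from the 3 of 24 h in 1315 genes that were higher (8.23%) and 1242 that were lower (7.77%). The median standard error (SE) of a log2 fold change was 0.19, and for 70.3% of the genes the 95% confidence interval lay within 1 of 0 on either side. A log2 fold change beyond 1 in size was seen in 752 genes. The median over all genes was 0.00.

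Markers matched the label of the tissue in all 6 libraries. The 15 endothelial markers summed to between 497414 and 618944 normalized counts per library, and none of them was at 0. Library totals of the 6 lay between 16431659 and 17908309 normalized counts. Among the 8 groups, the contralateral stroke libraries of 7 days had the highest median SD within the group, 0.25 on the log2 scale, against 0.16 to 0.22 in the other 7.

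Library 1 of 7 days stood apart from the others. Its mean correlation with the other 5 contralateral stroke libraries was 0.965, where the others had 0.975 to 0.981. It was the highest of the 6 in 3298 and the lowest in 2787 of 13577 genes with a mean above 20. Library 2 of 24 h was the highest in 3213 and the lowest in 2569. For library 3 of 7 days these were 2576 and 2928, so these counts did not set library 1 apart from those libraries. Neuron markers, 12 genes with none at 0, summed to 31748 normalized counts in it and to 7619 to 13333 in the other 5. The 11 astrocyte markers summed to 56194 against 14944 to 23112, and the 11 oligodendrocyte markers to 136364 against 40708 to 86406. Of the genes farthest above the other libraries in it, Nefh, the heavy neurofilament subunit, had 1274 normalized counts in it and 49 to 182 in the other 5. Syt2, a calcium sensor of transmitter release, had 496 against 28 to 82, and Slc6a3, the dopamine transporter, had 107 against 4 to 19. How far this material sets the differences between the time points was not tested as a cause, and values without this library are given beside the gene lists and the genes they move most. Library 2 of 24 h and library 3 of 7 days also differed from their groups, with limma array weights of 0.46 and 0.476. Such weights are low for libraries that scatter, and library 1 of 7 days had 0.371 and the other 3 had 1.38 to 2.07. In such bulk samples fewer cells of a type and less RNA per cell cannot be told apart.

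**Figure D1:**
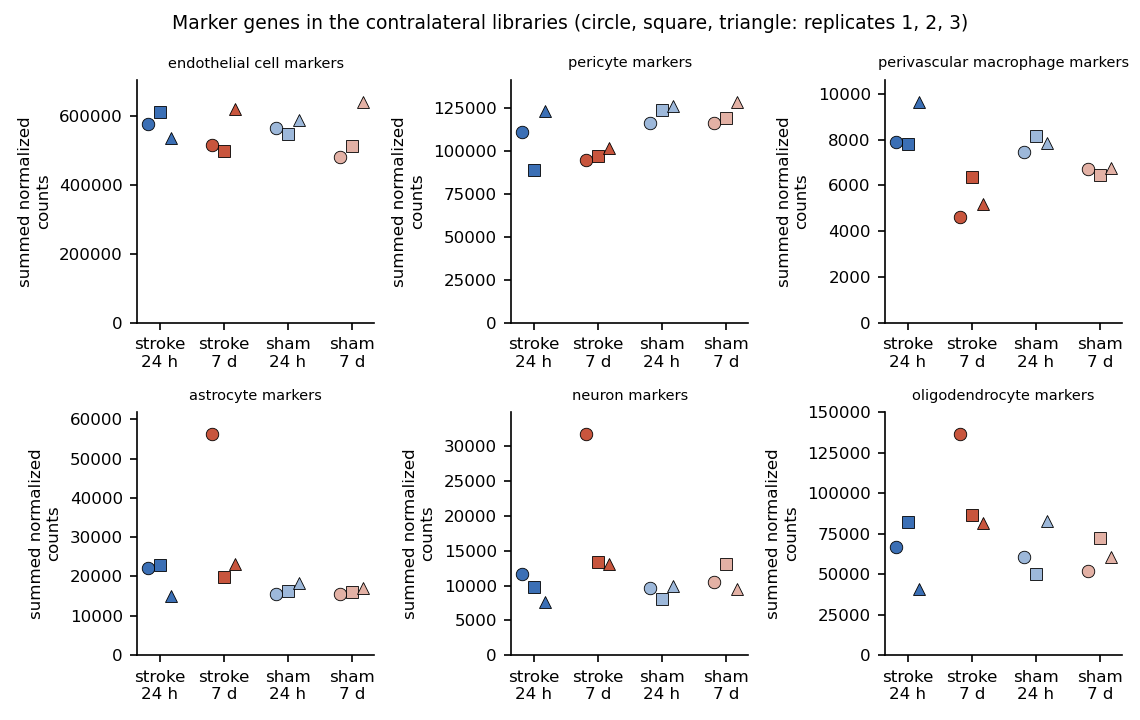
Summed normalized counts, on axes from 0, of the marker genes of 6 cell types in the 12 contralateral libraries, with one point per library and the replicate number given by its shape. Library 1 of 7 days post-stroke (circle) lies above all others for astrocyte, neuron and oligodendrocyte markers, with 31748 normalized counts of neuron markers against 7619 to 13333 in the other 5 stroke libraries.

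The count of regulated genes turned on single libraries. Without library 1 of 7 days it was 0, with 870 genes higher (5.44%) and 946 lower (5.92%) at an unadjusted p under 0.05. Without library 3 of 7 days it was 89 (0.557%), of which 74 were higher and 15 lower. In 69 of these 74 genes library 1 of 7 days was above the other 5, and in 12 of the 15 it was below them. Among genes with a mean above 20 it was so in 3298 and 2787 of 13577. Of the 89 genes, 55 kept the 3 and 3 libraries apart, where 16% of all genes did. When library 1 was the one left out, 70 of them had an unadjusted p under 0.05. The 89 genes were picked in a fit that shares most of these libraries, so these counts are not independent support. Without library 1 of 24 h 1 gene was regulated (0.00626%), and without any other library 0. Weighting of the libraries by their spread gave 34 regulated genes, 15 higher and 19 lower, and 12 of them were among the 89.

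**Figure D2:**
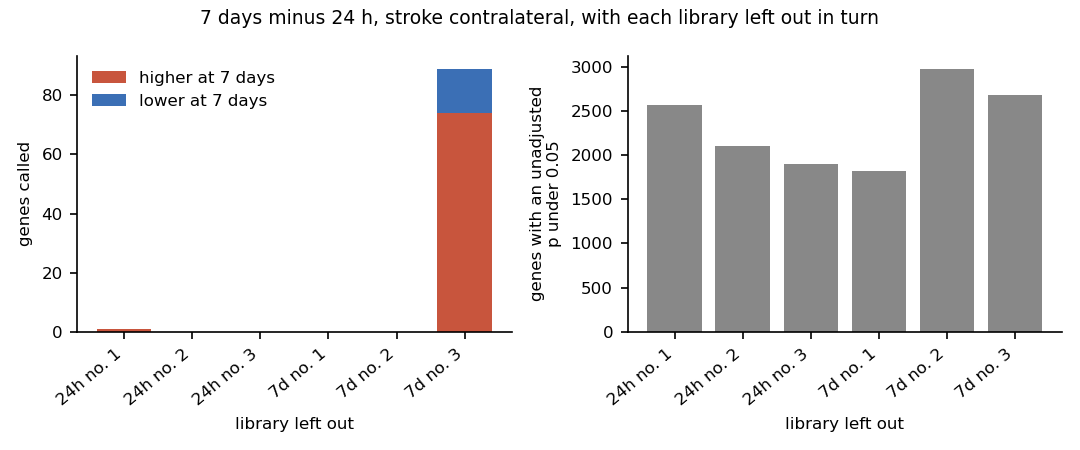
Genes called regulated (left) and genes with an unadjusted p under 0.05 (right) between 7 days and 24 h in the contralateral stroke microvessels, with the library on the horizontal axis left out. Without library 3 of 7 days 89 genes were called, without library 1 of 24 h 1, and 0 otherwise, while the number with an unadjusted p under 0.05 lay between 1816 and 2976.

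Among the genes that were higher at 7 days without overlap, those with the smallest p were led by Slc20a2 (ENSMUSG00000037656, chromosome 8 from 22476788 to 22569612 (mm10)), a phosphate transporter. It had 649, 623 and 664 normalized counts at 24 h and 1056, 913 and 1102 at 7 days. The log2 fold change was 0.66 (SE 0.12, limma adjusted p = 0.107), and 0.64 without library 1. In sham-operated mice the same gene had 888 to 914 normalized counts at 24 h and 779 to 935 at 7 days, so that the stroke libraries of 24 h were the lowest of the 4 contralateral groups. Ppp1r3c, which targets a phosphatase to glycogen, had 306, 319 and 302 normalized counts at 24 h and 763, 546 and 507 at 7 days. Its log2 fold change of 0.94 (SE 0.18) was 0.77 without library 1. Scara3, a scavenger receptor, had 441, 380 and 415 against 885, 676 and 808 normalized counts (log2 fold change 0.93), and Tox2, a nuclear protein with an HMG box, had 73, 109 and 84 against 235, 159 and 153 (1.02).

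Several of the other genes of this group had their highest value in library 1. Ckb, the brain form of creatine kinase, had 3102, 2594 and 2750 normalized counts at 24 h and 7280, 4259 and 4431 at 7 days, and its log2 fold change was 0.88 with and 0.63 without that library. Clu, the secreted chaperone clusterin, had 6968, 6003 and 6667 against 13551, 8623 and 9633 (0.67 with and 0.48 without). Mdga1, an adhesion molecule of neurons, had 34, 43 and 50 against 128, 69 and 75 (1.04 with and 0.77 without). For Stmn2, a regulator of microtubules in neurons, the libraries of 7 days were alike with 2453, 2493 and 2445 normalized counts, against 1123, 1335 and 1559 at 24 h (log2 fold change 0.89). Tuba1b, an alpha-tubulin, had 904, 842 and 845 against 1288, 1163 and 1279 (0.52). Tuba1b was also one of the 53 genes (0.332%) called between the time points contralaterally in sham-operated mice, where it rose by 0.62 (limma adjusted p = 0.0197).

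Among the genes that were lower at 7 days, Ivns1abp, which binds actin and a viral protein, had 6104, 3251 and 4028 normalized counts at 24 h and 1325, 1497 and 2280 at 7 days. The log2 fold change was -1.38 (SE 0.26, limma adjusted p = 0.107), and -1.22 without library 1. In the sham-operated mice it was -1.03 (limma adjusted p = 0.103). St8sia4, which builds polysialic acid, had 2225, 2924 and 2345 normalized counts against 1070, 1134 and 1833 (-0.93), while the sham value was -0.05. The difference between these time effects did not pass for St8sia4 (-0.88, limma adjusted p = 0.98). Slc25a20, the carnitine carrier of mitochondria, had 1120, 882 and 1152 against 520, 565 and 790 (-0.76), and Slc30a10, a manganese exporter, had 790, 657 and 823 against 402, 437 and 323 (-0.97). Abcc3, an efflux pump, had 66, 74 and 94 against 26, 43 and 44 (-1.05). Adcy7, an adenylyl cyclase, had 75, 83 and 83 against 36, 38 and 43 (-1.03). Tlr9, a receptor for DNA, was low throughout, with 13 to 17 normalized counts at 24 h and 5 to 7 at 7 days. Cdc42ep2 and Arhgap18, which act with small GTPases, had log2 fold changes of -0.93 and -0.49.

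**Figure D3:**
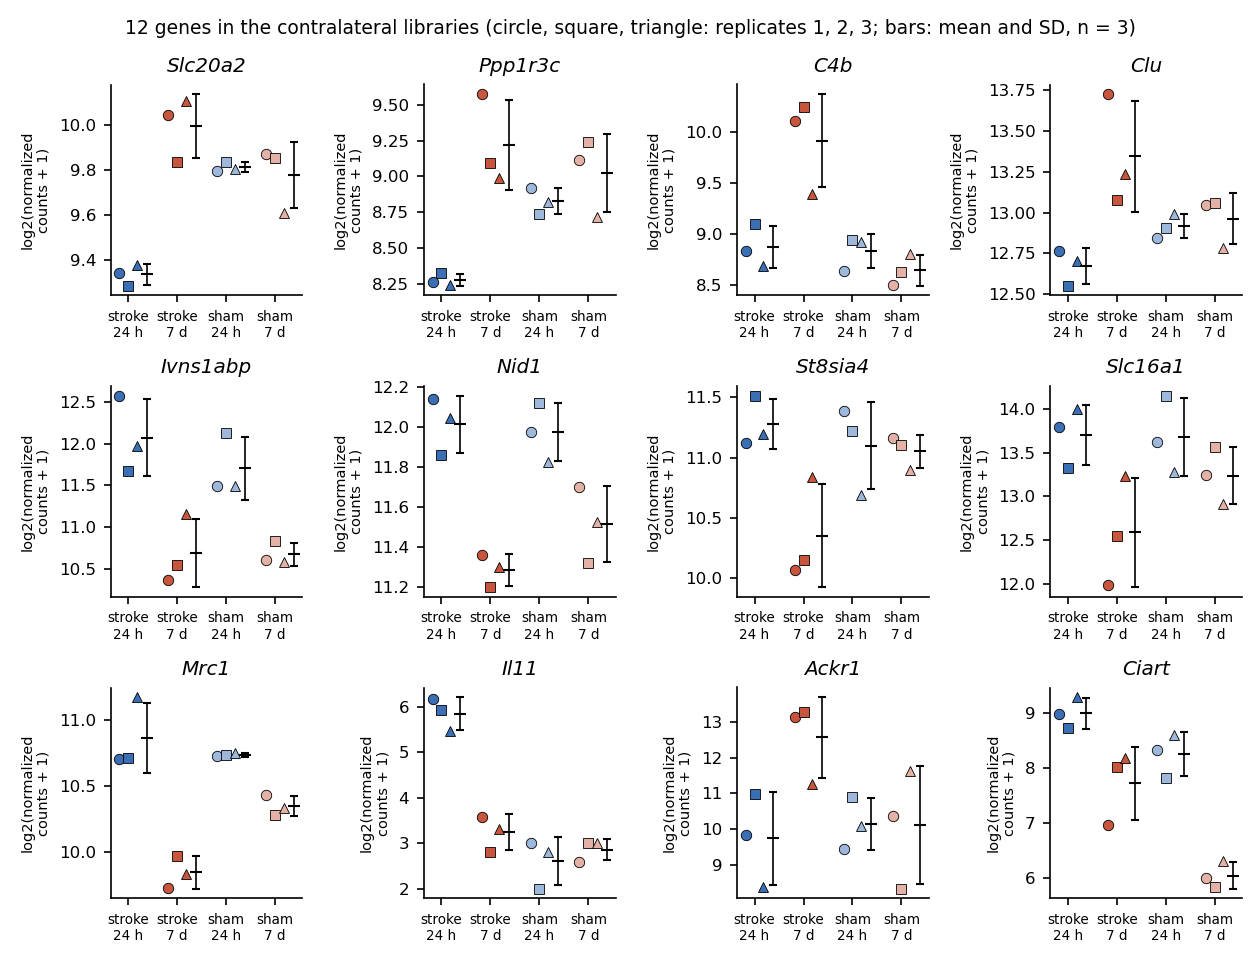
Log2 of the normalized counts plus 1 for 12 genes in the contralateral libraries after stroke and sham surgery at 24 h and 7 days, with one point per library and the mean and SD (n = 3) beside each group. The 3 libraries of 7 days post-stroke lie above the 3 of 24 h for Slc20a2, Ppp1r3c, C4b, Clu and Ackr1 and below them for the other 7 genes, and none of these differences passed the adjusted test.

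Of 22 genes of tight and adherens junctions 0 were higher and 3 lower at an unadjusted p under 0.05, against 9.35% higher and 7.15% lower of all genes. Without library 1, 2 were lower. The log2 fold changes lay between -0.79 and 0.27, with a median of -0.08 and -0.25 without library 1, beside 0.00 over all genes. Cldn5, the main claudin of brain endothelium, had 45896, 47961 and 43453 normalized counts at 24 h and 43561, 47962 and 61260 at 7 days, a log2 fold change of 0.14 (95% confidence interval -0.20 to 0.48). Library 3 of 7 days was the highest and the others overlapped. Without it the value was 0.00. Ocln, occludin, had -0.13 (-0.38 to 0.12), and Cdh5, the endothelial cadherin, had -0.05 (-0.55 to 0.44). The 3 lower genes over all libraries were Tjp1, the scaffold ZO-1, with 16294, 18722 and 16462 normalized counts against 11718, 14004 and 15010 (log2 fold change -0.34), Pard3, a polarity protein (-0.35), and Cldn12 (-0.25). Cldn5, Ocln, Cdh5 and these 3 were picked with their values known.

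Of 28 transporters of the barrier 0 were higher and 6 lower (21.4%, where 7.15% of all genes were lower), and 23 had a negative log2 fold change. The median was -0.28. Without library 1 it was -0.15, and 3 were lower (10.7%, where 5.92% of all genes were). The sham contralateral median was -0.16. Slc16a1, which carries lactate and ketone bodies, had 14194, 10256 and 16337 normalized counts at 24 h and 4047, 5968 and 9641 at 7 days. The 3 and 3 libraries did not overlap, and the log2 fold change was -1.12 (SE 0.30, limma adjusted p = 0.123), -0.82 without library 1 and -1.44 without library 3. Tfrc, the transferrin receptor that takes up iron, had 7985, 6090 and 10583 against 1964, 4574 and 4940 (-1.18, and -0.75 without library 1). Slco1a4, an organic anion transporter, had 71414, 48598 and 71865 against 23614, 37255 and 62380 (-0.73, and -0.38 without library 1), with library 3 of 7 days inside the range of 24 h. Slc6a6, the taurine transporter, was the highest member of the list with 16769, 23351 and 21149 against 24231, 27630 and 30390 normalized counts (0.43, interval -0.08 to 0.94). Slc2a1, the glucose transporter GLUT1, and Abcb1a, P-glycoprotein, were picked with their values known. They had log2 fold changes of -0.08 (-0.80 to 0.63) and -0.22 (-0.55 to 0.11). Like Slc16a1 and Ivns1abp, Slc6a20a and Hpgd were regulated in the fit without library 3 of 7 days. Slc6a20a, a transporter of imino acids, had a log2 fold change of -1.15, and Hpgd, which degrades prostaglandins, of -1.24 over all libraries (-0.82 without library 1).

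Most genes on the list of collagens and the basement membrane had lower values at 7 days. Of 35 collagens and basement membrane genes 32 had a negative log2 fold change, with a median of -0.46 (-0.44 without library 1), and 11 were lower and 1 higher at an unadjusted p under 0.05, where 7.15% of all genes were lower. The list summed to 230079, 234519 and 209515 normalized counts at 24 h and to 188753, 170054 and 160051 at 7 days, without overlap. In the sham-operated mice the sums were 223899 to 235861 at 24 h and 172576 to 203263 at 7 days, also without overlap, and the median was -0.23. Nid1, which links laminin to collagen IV, had 4501, 3706 and 4221 normalized counts against 2623, 2349 and 2523. Its log2 fold change was -0.73 (SE 0.15, limma adjusted p = 0.107) and -0.76 without library 1. Col4a3, a collagen of basement membranes, had 103, 65 and 102 against 40, 44 and 47 (-0.999), and Col1a1, a fibrillar collagen, had 1702, 722 and 1770 against 517, 676 and 791 (-0.99), where library 2 of 24 h lay with the libraries of 7 days. Sparc, a matrix protein that binds collagen and was picked with its values known, had 43575, 37506 and 37763 against 30835, 23262 and 26153 (-0.57). Hmcn1, hemicentin of the matrix, had 1252, 1367 and 924 against 637, 749 and 576 (-0.84). Matrix genes outside the list included ones with higher values. Col14a1, a collagen that associates with fibrils, had 113, 172 and 266 normalized counts at 24 h and 359, 1019 and 564 at 7 days, and Fbln2, fibulin 2, had 1500, 1265 and 2204 against 2280, 4007 and 3230, both without overlap. Their log2 fold changes of 1.77 and 0.94 (limma adjusted p = 0.107 and 0.114) were 2.13 and 1.16 without library 1, and with weights both were among the 15 higher genes that passed. In the sham contralateral libraries both rose, by 2.32 and 1.20 (limma adjusted p = 0.014 and 0.0192). Col14a1 and Fbln2 were picked with their values known.

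No marker of the cells of the wall was called. The 15 endothelial markers had a median of -0.05 (-0.11 without library 1), with 1 lower and 0 without that library. Of 10 pericyte markers 4 were lower (3 without library 1) and 0 higher, where 7.15% of all genes were lower, with a median of -0.39 and the same without library 1. Abcc9, a subunit of the potassium channel of pericytes, had 2539, 2269 and 2301 normalized counts at 24 h and 1504, 1086 and 1347 at 7 days (log2 fold change -0.86). Of 10 fibroblast markers 4 were lower (3 without library 1), with a median of -0.52 and a range of the summed level from 23416 to 46385 at 24 h and from 19453 to 29221 at 7 days. The 10 smooth muscle markers had a median of 0.45 (0.66 without library 1), and 2 were higher (20%, where 9.35% of all genes were). In the sham contralateral libraries the medians were 0.06 for endothelial, -0.27 for pericyte, -0.40 for fibroblast and -0.35 for smooth muscle markers. No pericyte, fibroblast or smooth muscle marker was at 0 in any of the 6 libraries. The part of these cells in the difference of the matrix genes was not tested.

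Perivascular macrophages, which patrol the space around vessels, had 9 markers tested, and all 9 had a negative log2 fold change. Of them 5 were lower at an unadjusted p under 0.05 (3 without library 1), where 7.15% of all genes were (5.92% without). The median of the 9 markers was -0.57 (-0.55 without library 1), and -0.39 in the sham contralateral libraries. Their sum was 7895, 7826 and 9637 normalized counts at 24 h and 4613, 6368 and 5170 at 7 days, and the groups did not overlap. Mrc1, the mannose receptor, had 1670, 1674 and 2305 against 847, 1004 and 911 (log2 fold change -1.02, standard error 0.26, limma adjusted p = 0.123). Cd163, the receptor for haptoglobin and haemoglobin, picked with its values known, had 775, 584 and 922 against 362, 406 and 518 (-0.82). For Mrc1 the sham value was -0.39 and for Cd163 it was -1.03, neither of which passed. The 10 microglia markers had a median of -0.63 (-0.52 without library 1), with 3 lower (30%, where 7.15% of all genes were). Without library 1, 1 was lower (10%, where 5.92% of all genes were). Their sham contralateral median was -0.31. Choroid plexus markers, which track carry-over of that tissue, differed widely within the groups, with sums of 36029, 9712 and 58150 normalized counts at 24 h and 22439, 5103 and 13490 at 7 days. Folr1, a folate receptor of that epithelium, had 130, 21 and 215 against 47, 6 and 32.

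Of 21 genes of antigen presentation 6 were lower (28.6%) and 1 higher (4.76%), where 7.15% and 9.35% of all genes were. Without library 1 of 7 days 6 were lower and 6 higher. The 6 lower ones over all libraries were class II genes or genes that serve class II, among them H2-Ab1 with 268, 533 and 263 normalized counts at 24 h and 187, 142 and 184 at 7 days (log2 fold change -0.98) and Cd74, the invariant chain, with 560, 1239 and 613 against 431, 342 and 399 (-0.95). The higher one was H2-Q7, a class I gene with near-identical neighbours, with 98, 230 and 153 against 244, 304 and 264 (0.83). Reads that match several genes were excluded by the authors, which may lower its counts. Cd74 was picked with its values known. Complement genes also divided, with 5 of 18 higher and 4 lower. The 4 lower ones were C3ar1, the receptor for C3a, with 124, 99 and 209 against 89, 69 and 75 (-0.82), and the 3 chains of C1q, of which C1qa had 1477, 1231 and 1592 against 806, 756 and 1113 (-0.70). C1qa was picked with its values known.

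C4b (ENSMUSG00000073418, chromosome 17 from 34728380 to 34743882 (mm10)), a complement component of the classical pathway, was among the 12 higher genes with the smallest p. It had 454, 546 and 411 normalized counts at 24 h and 1103, 1211 and 671 at 7 days. The log2 fold change was 1.04 (SE 0.22, limma adjusted p = 0.107), 0.95 without library 1 and 1.31 without library 3. The sham contralateral libraries had 396 to 488 at 24 h and 361 to 445 at 7 days, so that the stroke libraries of 7 days lay above all of them. At 7 days C4b was higher after stroke than after sham surgery by 1.27 (limma adjusted p = 0.0358), and it was known from an earlier analysis to differ there. The difference between the time effects of stroke and sham was 1.23 (SE 0.31, limma adjusted p = 0.741) and did not pass. In the ipsilateral hemisphere it rose by 1.13 between the time points (limma adjusted p = 0.00128), and the hemispheres differed by -0.08 in this respect (limma adjusted p = 0.891). Reads that match both C4b and its near-identical copy C4a were excluded by the authors, which may lower its counts.

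Of 17 genes of leukocyte adhesion and endothelial activation 3 were higher (17.6%, where 9.35% of all genes were) and 0 lower. In 3 the libraries lay apart in the higher and in 2 in the lower direction. The median was 0.15 and 0.05 without library 1, when 4 were higher. Ackr1, a chemokine receptor of venules that moves chemokines across the wall, had 923, 2012 and 336 normalized counts at 24 h and 9041, 9925 and 2463 at 7 days. The groups lay apart, with library 3 of 7 days close to library 2 of 24 h, and the log2 fold change was 2.82 (SE 0.87, limma adjusted p = 0.145). The sham libraries held 323 to 3128. Icam1, a ligand of leukocyte integrins, had 1804, 2364 and 1518 against 2625, 2726 and 2495 (0.49), while the sham libraries had 1806 to 2119 at 24 h and 1087 to 1199 at 7 days (-0.76, limma adjusted p = 0.0579). The difference between these time effects was 1.25 (SE 0.24, limma adjusted p = 0.58), and at 7 days Icam1 was higher after stroke than after sham surgery by 1.20 (limma adjusted p = 0.00761). Vcam1 had 6574, 7237 and 8833 against 9495, 12168 and 9358 (0.45). The selectins were too scattered for a statement. Sele had 44, 128 and 11 normalized counts against 539, 618 and 40, with an interval from -0.51 to 5.59, and Selp had 106, 207 and 15 against 542, 200 and 16, with a log2 fold change of 0.79 and -0.28 without library 1. Lcn2, a secreted iron-binding protein of inflamed endothelium, had 5799, 13164 and 2690 against 25097, 17061 and 6055 (1.22, interval -0.99 to 3.43, and 0.78 without library 1). Within each time point these genes had their lowest value in library 3. Vcam1 at 24 h was the exception, as its library 3 was the highest. Plvap, the protein of endothelial diaphragms, had 442, 624 and 583 against 1114, 900 and 1969 without overlap (1.20, limma adjusted p = 0.135), and Aplnr, the apelin receptor of sprouting vessels, had 116, 111 and 121 against 33, 72 and 38 (-1.35). Vcam1, Sele, Selp and Lcn2 were picked with their values known.

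Il11 and Mmp3, which were abundant ipsilaterally at 24 h, also lay above the sham libraries contralaterally at that time. Il11, a cytokine of the interleukin 6 family, had 71, 60 and 43 normalized counts at 24 h and 11, 6 and 9 at 7 days, and the sham contralateral libraries of both time points had 3 to 7. The log2 fold change was -2.62 (SE 0.59, limma adjusted p = 0.107) and -2.79 without library 1. Mmp3, a metalloproteinase of the matrix, had 74, 69 and 14 against 5, 0 and 0, and 2 to 6 in the sham libraries (-4.56, a value that depends on the added 1 because 2 of the libraries were listed at 0). Il6 had 17, 34 and 16 against 11, 0 and 1. Ipsilaterally, Il11 had 3160, 3280 and 1977 normalized counts at 24 h and 10 to 16 at 7 days, and Mmp3 had 1892, 1996 and 1329 against 3 to 20. The stroke and sham contralateral libraries of 24 h did not overlap for Il11 and Mmp3, but the test did not pass (log2 differences 3.25 and 3.05, limma adjusted p = 0.35 for Il11). Whether material of the other hemisphere contributed was not tested. Timp1, the inhibitor of metalloproteinases, had 119, 145 and 55 against 148, 75 and 43 (-0.33, and -0.78 without library 1). Il11 and Timp1 were picked with their values known.

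Most nuclear genes for oxidative phosphorylation and most cytosolic ribosomal proteins had higher values at 7 days, by small amounts. Of 96 nuclear genes for subunits of oxidative phosphorylation (OXPHOS), 86 had a positive log2 fold change, 41 were higher and 0 lower, where 9.35% of all genes were higher. The median was 0.22, and without library 1 it was 0.27, with 38 higher. The summed level was 150067, 130162 and 143904 normalized counts at 24 h and 160193, 154482 and 185672 at 7 days. Cox8a, a subunit of cytochrome oxidase, had 3085, 2930 and 2887 against 4312, 3687 and 4319 (log2 fold change 0.47, standard error 0.10, limma adjusted p = 0.107). Of 81 cytosolic ribosomal proteins 78 were positive and 20 higher, with a median of 0.25 (0.28 without library 1). Rps21, of the small subunit, had 6434, 5948 and 5663 against 8132, 7357 and 10255 (0.50). The sham contralateral medians were close to these, 0.25 for OXPHOS and 0.30 for ribosomal proteins. The 14 genes of the mitochondrial genome had a median of -0.16, and 10 were negative. At an unadjusted p under 0.05 there were 0 in either direction, while 3 lay apart in the lower direction (21.4%, where 7.77% of all genes did).

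Of 29 interferon-stimulated genes 6 were higher (20.7%, where 9.35% of all genes were) and 1 lower, 10 lay apart in the higher direction, where 8.23% of all genes did, and the median was 0.28 (0.32 without library 1). In sham-operated mice the median was 0.82, and no member differed between stroke and sham in its time effect by limma's adjusted p. Irf7, the master regulator of the response, had 995, 947 and 1125 normalized counts at 24 h and 1509, 1710 and 1662 at 7 days (0.67, limma adjusted p = 0.197). Apol9b, which interferon induces, had 15, 19 and 25 against 45, 67 and 65 (1.54, standard error 0.30). Reads that also match the near-identical Apol9a were excluded by the authors, which may lower its counts. In the sham libraries Apol9b rose by 1.58 (limma adjusted p = 0.0239).

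Most listed genes of neural cells had higher values at 7 days, with library 1 at the top and smaller medians without it. Of 12 neuron markers 9 were higher, with a median of 0.96, and without library 1 it was 2 with a median of 0.44. Among all genes 9.35% were higher and 7.15% lower, and without library 1 5.44% and 5.92%. Astrocyte markers had medians of 0.72 with and 0.26 without that library, and oligodendrocyte markers of 0.71 and 0.43. In each of these lists 5 of 11 markers were higher. Without library 1, 0 were higher in either list and 1 astrocyte marker was lower. Gfap, the filament of reactive astrocytes, had 1375, 2503 and 854 normalized counts at 24 h and 6583, 1981 and 2349 at 7 days (1.13 with and 0.59 without library 1), so that the groups overlapped. Agt, angiotensinogen of astrocytes, had 531, 469 and 233 against 3007, 458 and 996 (1.52 with and 0.80 without). Tubb3, a tubulin of neurons, had 341, 242 and 132 against 1460, 309 and 416 (1.36 with and 0.69 without). Mbp, the myelin basic protein, had 31720, 40606 and 15580 against 87714, 58271 and 48123 without overlap (1.21 with and 0.96 without). Of 43 receptor subunits for glutamate, GABA and glycine 13 were higher and 1 lower, with a median of 0.64, and without library 1 it was 1 and 2 with a median of 0.17. Gabrb1, a subunit of the GABA receptor, had 238, 163 and 117 against 864, 291 and 345 (1.41 with and 0.93 without).

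Of 30 immediate early and AP-1 genes 1 was higher (3.33%, where 9.35% of all genes were) and 0 lower, with a median of 0.18. Without library 1 the median was -0.14, with 2 higher and 1 lower. Arc, a synaptic immediate early gene, was not on this list. It had 56, 69 and 44 normalized counts at 24 h and 552, 254 and 184 at 7 days (log2 fold change 2.39, standard error 0.55, and 1.94 without library 1). Its sham libraries had 44 to 92 and 158 to 231 (1.74, limma adjusted p = 0.206). Egr4, a transcription factor on the list, had 16, 17 and 13 against 96, 48 and 54 (1.98). In the fit without library 3 of 7 days, the 5 largest log2 fold changes among the higher genes with a mean above 20 were those of Arc (2.73), Best1 (2.08), a chloride channel, Rims3 (1.97), a protein of the presynaptic zone, Inpp5j (1.89), a phosphatase of inositol lipids, and Gm6145 (1.84), with limma adjusted p of 0.0492, 0.0408, 0.0474, 0.0474 and 0.0496. Best1 had 57, 60 and 53 normalized counts at 24 h and 220, 269 and 96 at 7 days, and Rims3 had 167, 138 and 94 against 862, 302 and 186 (1.49 over all libraries and 0.87 without library 1).

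**Figure D4:**
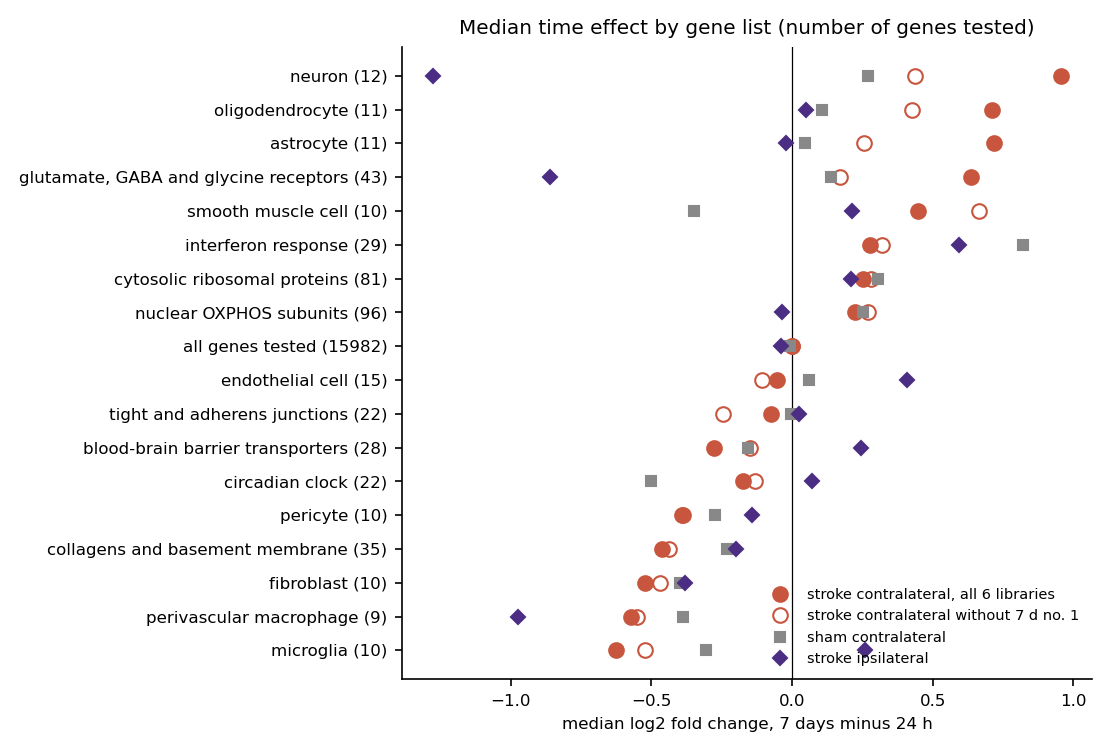
Median log2 fold change, 7 days minus 24 h, of 17 gene lists and of all genes tested, with the number of genes in brackets. Filled circles are the 6 contralateral stroke libraries, open circles the same without library 1 of 7 days, squares the sham contralateral and diamonds the stroke ipsilateral libraries. Neuron markers moved from 0.96 to 0.44 without library 1, while collagens and basement membrane genes stayed at -0.46 and -0.44.

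The circadian clock is a loop in which ARNTL with CLOCK or NPAS2 binds E-boxes and drives its own repressors (PER, CRY, CIART) and the output factor DBP, while REV-ERB (Nr1d1, Nr1d2) and ROR act on Arntl. Of 22 clock genes 4 were higher (18.2%) and 6 lower (27.3%) at an unadjusted p under 0.05, where 9.35% and 7.15% of all genes were. The median was -0.17. Without library 1 it was -0.13, with 3 higher and 3 lower (13.6% each), where 5.44% and 5.92% of all genes were. Ciart (chromosome 3) had 500, 421 and 622 normalized counts at 24 h and 123, 259 and 288 at 7 days without overlap (log2 fold change -1.27, standard error 0.36, limma adjusted p = 0.135). Dbp had 3315, 2066 and 4525 against 785, 2801 and 1334 (-1.13, and -0.70 without library 1), and Nr1d1 had 4656, 4614 and 5022 against 1782, 4861 and 2018 (-0.87), with library 2 of 7 days at the level of 24 h for both. Nr1d2 had 2856, 3178 and 3115 against 1600, 2456 and 2135 (-0.58). Npas2, of the activating limb, had 58, 91 and 46 against 211, 112 and 97 without overlap (1.07, and 0.73 without library 1). Arntl had 294, 569 and 159 against 1125, 377 and 470 (0.97, and 0.49 without library 1). Nfil3, which represses at D-boxes, had 50, 210 and 43 against 430, 158 and 95 (1.27, and 0.66 without library 1). For Arntl and Nfil3 library 2 of 24 h lay within the range of 7 days, so that the groups overlapped. The hour at which the mice were killed is not given in the sources used here, and its part in these differences was not tested. Dbp, Nr1d1, Nr1d2, Arntl and Npas2 were picked with their values known.

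Per2 and Usp2, a deubiquitinating enzyme of clock proteins, were among the 5 genes that differed between stroke and sham contralaterally at 7 days. Per2 had 819, 899 and 1085 normalized counts at 24 h and 639, 659 and 648 at 7 days post-stroke (-0.52). In sham-operated mice it fell, with 571 to 717 normalized counts at 24 h and 170 to 269 at 7 days (-1.70, limma adjusted p = 0.000811). The difference between these time effects was 1.19 (SE 0.29, limma adjusted p = 0.67). Usp2 had 291, 234 and 307 against 585, 351 and 405 (0.66), and the sham value was -0.54. Ciart fell after sham surgery by 2.20 on the log2 scale (limma adjusted p = 0.00823), with 224 to 387 normalized counts at 24 h and 56 to 78 at 7 days.

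The promoters of 2 clock genes with opposite signs are shown because they hold the letters that the loop acts on, with the RefSeq table (GRCm38.p6) as the source, 250 bases before and 50 after the start and the strand of the gene. Capitals in the promoter of Ciart (chr3:95882179-95882478, minus strand) mark the E-box CACGTG at 3 places, which begin at -116, -58 and -44 from the start. Capitals in a promoter of Arntl (chr7:113207261-113207560, plus strand) mark AGGTCA, the element that REV-ERB and ROR recognise, which begins at 32 after the start.
Ciart: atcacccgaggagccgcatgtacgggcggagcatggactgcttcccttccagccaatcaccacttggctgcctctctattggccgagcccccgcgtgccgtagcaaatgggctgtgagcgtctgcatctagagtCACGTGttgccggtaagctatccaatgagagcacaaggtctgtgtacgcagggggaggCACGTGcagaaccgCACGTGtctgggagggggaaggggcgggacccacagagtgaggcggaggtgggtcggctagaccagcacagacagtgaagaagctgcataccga
Arntl: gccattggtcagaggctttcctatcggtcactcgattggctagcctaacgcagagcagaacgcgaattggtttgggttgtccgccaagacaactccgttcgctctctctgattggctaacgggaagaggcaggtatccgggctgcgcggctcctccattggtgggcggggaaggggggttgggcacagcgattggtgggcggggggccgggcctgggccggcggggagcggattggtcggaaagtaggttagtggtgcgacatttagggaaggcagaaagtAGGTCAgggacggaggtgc
Both strands were searched, and an E-box reads the same on both. Among 32851 promoters of the table, 7.15% hold CACGTG and 16.3% hold AGGTCA. Of the 18 clock genes with an entry, 5 held CACGTG in a promoter and 5 AGGTCA, and 2 held the D-box TTANNTAA, which 6% of all promoters hold. These 18 genes have 26 promoters, so counts by gene are not on the same footing as shares of promoters. The other promoter of Arntl in the table held no AGGTCA. The promoters of Dbp and Nr1d1 in the table held none of the 3. A match describes these letters and is not evidence of binding.

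Against the time effect in sham-operated mice, that of the contralateral stroke microvessels differed in 0 genes by limma's adjusted p, and 773 genes (4.84%) had an unadjusted p under 0.05. The 5 genes that differed between stroke and sham at 7 days (0.0313% of the genes tested) share the 7-day libraries with this comparison, so their values are given only side by side. Beside C4b, Icam1, Per2 and Usp2, this was Il10rb, a receptor chain for interleukin 10, with 1804 to 2469 normalized counts at 7 days post-stroke and 3112 to 3265 after sham surgery.

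Against the ipsilateral hemisphere of the stroke mice, the time effect differed in 1410 genes (8.82%), of which 1099 (6.88%) were more positive and 311 (1.95%) more negative contralaterally. After median centring of the libraries these were 864 and 585. Without library 1 of 7 days 574 were more positive and 114 more negative. Among the genes with the smallest p were Hsd17b7 and Cyp51, enzymes of cholesterol synthesis, Snrpa1, a spliceosome protein, and Tnc, the matrix protein tenascin C. Contralaterally Hsd17b7 had 107, 102 and 80 normalized counts at 24 h and 115, 103 and 115 at 7 days, and ipsilaterally 267, 243 and 208 against 84, 71 and 65. The difference was 1.91 (SE 0.20, limma adjusted p = 0.000128). Snrpa1 (320 to 361 at 24 h and 312 to 353 at 7 days) and Cyp51 (384 to 422 and 424 to 509) overlapped or nearly touched between the time points contralaterally, and Tnc had 23 to 53 against 18 to 34. Ipsilaterally these fell, and the differences were 1.24, 1.29 and 5.22. Tjp1 and Abcb1a differed in the other direction. They rose ipsilaterally by 0.56 and 0.98 (limma adjusted p = 0.0068 and 0.0003), and the differences were -0.90 and -1.20 (limma adjusted p = 0.00692 and 0.00309).

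By list, the differences between the hemispheres included 10 of 12 neuron markers, 16 of 43 receptor subunits and 14 of 38 proteasome subunits, all more positive contralaterally. Of 24 cholesterol genes 8 were more positive and 1 more negative. Of 29 cell cycle genes 2 were more positive and 7 more negative, and of 28 barrier transporters 1 and 3. Of all genes 6.88% were more positive and 1.95% more negative. Without library 1 of 7 days the total fell from 1410 to 688 genes, and counts by list are not given for that fit. The 594 genes that rose ipsilaterally (3.72%) had a median of 0.14 contralaterally (0.24 without library 1), and 103 of them were higher (17.3%) and 17 lower (2.86%) at an unadjusted p under 0.05, where 9.35% and 7.15% of all genes were. The 1349 genes that fell ipsilaterally (8.44%) had a median of 0.07 contralaterally (-0.05 without library 1), with 211 higher (15.6%) and 130 lower (9.64%).

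**Figure D5:**
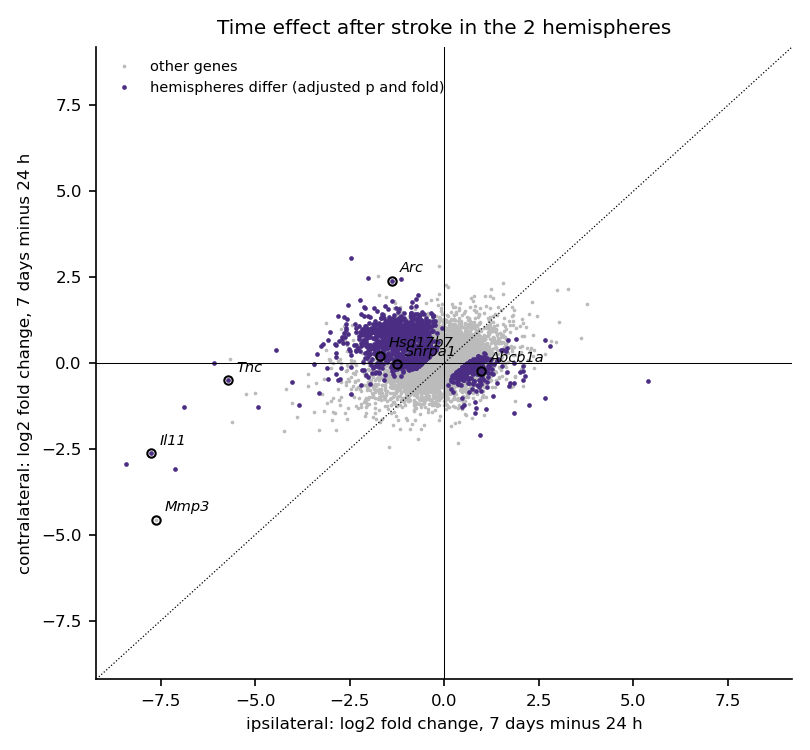
Log2 fold change, 7 days minus 24 h, in the contralateral (vertical axis) against the ipsilateral hemisphere (horizontal axis) after stroke for the 15982 genes tested, with the 1410 genes whose time effect differed between the hemispheres in purple, 7 genes named and equality dotted. Ipsilateral values extend to -8.41, while contralateral ones lie between -4.56 and 3.05.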

How the data were processed

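Reads of polyadenylated RNA were aligned by the authors to mm10 with STAR (2.5.2b in the submitters' processing notes, another release in the paper), reads of several genes were excluded, and featureCounts 1.5.1 and DESeq2 1.6.2 are named in the same notes. The deposited values are a score: counts per gene that the authors scaled by DESeq2 size factors and then rounded to whole numbers, for 17270 genes. Depth therefore shows only as normalized totals, and columns of the authors' own annotation and comparisons were not used.

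In R 4.3.3, 1 was added to each value, log2 was taken, and the 15982 genes with a mean above 5 over the 24 libraries were fitted with limma 3.58.1 (mean-variance trend, all 8 groups), with Benjamini-Hochberg adjustment over them. A gene was called with an adjusted p under 0.05 and a difference beyond 1.5-fold. P-values, SE and intervals rest on a spread per gene that all 8 groups of 3 pools share and that limma draws towards the trend. The contralateral stroke libraries of 7 days had the highest median SD (0.25), so the shared spread can understate theirs. The difference of the time effect from sham and from ipsilateral libraries was tested in the same fit. The fit was tested on simulated data. Groups came from the library titles.

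The members and the 45 gene lists were chosen with earlier results of these data known. Named genes are the 12 higher and 12 lower genes with the smallest p among those with a mean above 20 and no overlap, the extremes of each list, the 5 genes that differed between stroke and sham at 7 days, the 5 highest and 5 lowest calls in the fit without the library whose omission gave most calls, the genes farthest out in library 1 of 7 days, and the 5 smallest p for each difference of time effects. Of these, 2 genes are not reported here. Other genes were picked with their values known, which is stated beside them. Alternatives changed the pseudocount, filter, scaling, groups in the fit, blocks, limit on the fold change, eBayes, weights and libraries. Promoters came from RefSeq (GRCm38.p6), with 18 of 22 clock genes matched, and figures were drawn in Python.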

Additional observations from a re-analysis of the deposited data

Results flagged for a closer look

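The time effect differed between the contralateral and the ipsilateral hemisphere of the stroke mice in 1410 genes by limma's test of the difference itself. Among those with the smallest p, Hsd17b7 (difference 1.91 on the log2 scale), Snrpa1 (1.24), Cyp51 (1.29) and Tnc (5.22) were more positive contralaterally. Each of these 4 fell ipsilaterally, while their contralateral confidence intervals included 0.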

How the results depend on the processing

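The count of 0 regulated genes between 7 days and 24 h held under a pseudocount of 0.5, no filter, a minimum mean of 20, the filter over the compared libraries, median centring, the compared groups alone, no limit on the fold change and robust eBayes. With array weights it was 34 (15 higher and 19 lower), and with each of the 6 libraries left out in turn it was between 0 and 89 (0 to 74 higher and 0 to 15 lower). The count at an unadjusted p under 0.05 was 1586 with only the compared groups in the fit, between 1816 and 2976 with a library left out and between 2392 and 2754 otherwise. The difference from sham remained at 0 genes in all of these. The difference from the ipsilateral hemisphere (1410 genes) was 420 with only the compared groups in the fit (313 more positive and 107 more negative contralaterally), and 585 genes were more negative after median centring. With a library left out it was between 681 and 1815 (541 to 1381 more positive and 114 to 434 more negative). It was 681 without contralateral library 3 of 24 h, 688 without contralateral library 1 of 7 days and 759 without ipsilateral library 1 of 24 h. The cause was not tested.

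The replicate numbers of the time points mark different mice, and the residuals of same-numbered contralateral libraries had correlations of 0.143, 0.003 and 0.353. Between the hemispheres they were 0.066, 0.36 and 0.327 at 24 h and 0.059, 0.309 and 0.064 at 7 days, and every library correlated best with its own number, a hint from the data only. Some margins were small. Contralateral library 1 had 0.031 at 24 h and 0.057 at 7 days with ipsilateral number 3. Contralateral library 3 of 7 days had 0.017 with ipsilateral number 1. In the fit with a replicate block on these numbers 0 genes were regulated between the time points (2612 at an unadjusted p under 0.05) and 1357 differed between the hemispheres. With the mouse pool as a block over the hemispheres 0 were regulated and 2468 differed (1737 more positive and 731 more negative).

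Of 88 genes followed, 82 kept their direction in every alternative. The sign turned in some fits with a library left out, where Cldn5 lay between -8e-04 and 0.25, Timp1 between -0.78 and 0.0989, Selp between -0.28 and 2.22, Hbb-bs between -0.27 and 1.105, Slc2a1 between -0.20 and 0.0155 and Cdh5 between -0.26 and 0.22. With weights Cdh5 had 0.0082. In 8 of 45 lists the median moved by more than the spread between libraries under at least 1 alternative, chosen for the lists after seeing the data.

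Depth shows here only as normalized totals, and 3 pools per time point, one of them rich in neural transcripts, limit these comparisons. For the median gene the 95% confidence interval reached 0.40 on the log2 scale to either side of the estimate. This interval is unadjusted, so 0.40 is not the limit of what the adjusted test could detect. Of the 752 genes with a log2 fold change beyond 1 in size, 0 were called.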

Other observations

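After stroke, the contralateral levels of erythrocyte transcripts overlapped between the time points. The 7 markers summed to 10443, 7238 and 14174 normalized counts at 24 h and to 29248, 17778 and 4418 at 7 days post-stroke. Hbb-bs, a beta-globin, had 6219, 4000 and 8219 against 16416, 9784 and 2425. In the sham contralateral libraries the sums went from 424 to 58289. The median log2 fold change between the time points was 3.94 there, against 0.46 after stroke (-0.10 without library 1 of 7 days). Of 24 genes of the glucocorticoid response 0 were higher and 0 lower at an unadjusted p under 0.05 in the contralateral stroke microvessels. Among all genes 9.35% were higher and 7.15% lower. The list had a median log2 fold change of 0.07, and the sham median was -0.59. The summed level was 99003, 159346 and 82069 normalized counts at 24 h and 167247, 83704 and 114019 at 7 days post-stroke, so that the groups overlapped. Of the 10 neutrophil and monocyte markers tested 0 had an unadjusted p under 0.05, with a median log2 fold change of 0.46 (-0.03 without library 1 of 7 days) and sums of 1130, 1102 and 640 against 2522, 1124 and 669.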
